A study of Mus musculus with 2 samples.

Results

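The 10 genes described here encode the D-type cyclins (Ccnd1, Ccnd2 and Ccnd3), the kinases they activate in G1 (Cdk4 and Cdk6) and inhibitors of cyclin-dependent kinases (Cdkn1a, Cdkn1b, Cdkn1c, Cdkn2c and Cdkn2d). They were followed in maps of H3K27ac, the acetylation of histone H3 that marks active promoters and enhancers, made by ChIP-seq in MA9 cells, mouse leukaemia cells with the fusion protein MLL-AF9. The genes were chosen by name, 10 of 21887 protein-coding genes, and each was taken with 50 kb on both sides. Their loci held 89 of 37234 peaks in Gata2 KO cells (Gata2 -/-, 1 library) and 70 of 34272 peaks in Gata2 f/f cells (floxed Gata2, 1 library). Both came from leukaemia cells of the bone marrow of primary animals. Per the labels, these were transduced with Cre or, as control, with MIT, a name the labels do not explain. They were sorted for GFP and tdTomato and used after 7 to 9 days of culture with IL-3, IL-6 and SCF. The number of animals behind each library is not given in the labels. Each genotype had 1 library, so that no value below has a replicate check, no test was made, and each difference describes these libraries and not the genotypes.

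In G1 phase, D-type cyclins bind CDK4 or CDK6, and the active kinases phosphorylate the retinoblastoma protein, which frees E2F factors to switch on genes of DNA replication. INK4 proteins (here those of Cdkn2c and Cdkn2d) bind the kinases and keep the cyclins away, whereas Cip/Kip proteins (of Cdkn1a, Cdkn1b and Cdkn1c) bind assembled cyclin and kinase complexes. CDK6 is the kinase most tied to leukaemia with MLL fusions, where its gene is a known target of the fusion protein.

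The read depth behind the lists is unknown, and how many peaks are called, and how wide, can depend on it. Among the KO peaks the caller's own -log10 p had a median of 9.41 and its fold enrichment one of 3.09, against medians of 12.2 and 3.51 among the f/f peaks. These are the authors' values per peak. Below they describe and rank the peaks of a list or set a minimum for them, and a minimum of 3-fold kept 53.5% of the KO peaks and 67.2% of the f/f peaks, so that it did not treat both lists alike. A peak of the Xist gene end was present in f/f alone, and peaks of the Y-linked Uty, Kdm5d and Eif2s3y in KO alone, so that the sex of the animals and the genotype cannot be told apart. Starts of 6 chromosomes held peaks in 1 list alone, and none of the 10 loci lay there. Cdk6 lies near the start of chromosome 5, where both lists held peaks from 3072057 (KO) and 3071902 (f/f) on. Of 8 myeloid and MA9 genes, 5 had a gene-end peak in KO, where Hoxa9, Meis1 and Mpo had none, and 8 in f/f. Of 20 markers of T and NK, B, erythroid, and stromal and endothelial cells, 4 had one in each list. The part of these marks in the differences below was not tested. The Gata2 gene with 50 kb on both sides was covered at 7.46% in KO and 12.2% in f/f, which does not check the deletion itself.

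Across the 10 loci, coverage (the percent of the locus, that is the gene with 50 kb on both sides, that lay under peaks) was higher in KO for 7 genes and lower for 3. Among 17304 protein-coding genes with a peak in either list, 56.6% were higher in KO and 43.3% lower, or 56.4% and 43.6% without the chromosome starts named above. The median difference, KO minus f/f, was 0.53 percentage points over the 10 genes and 0.15 over all genes. A difference of at least 1.5-fold in covered bases was found at 3 genes: at Ccnd1 toward KO (all genes 12.6%) and at Ccnd2 and Cdkn1b toward f/f (all genes 9.32%), against 21.9% of all genes in either direction. With 10 genes, neither count stands far from these shares. The counts also moved with the peaks used. With the same number of peaks taken from each list, 4 genes were higher in KO and 6 lower. Among the strongest 20000 peaks of each list by -log10 p, 2 genes were higher in KO and 8 lower. With flanks of 10, 25 or 100 kb, 5 were higher and 5 lower. Shares over all genes were not recomputed under these settings, so that these counts have none beside them. Of the other cell cycle genes described below, 20 were higher in KO and 19 lower with all peaks and 50 kb. Both with the same number of peaks and among the strongest 20000, these counts were 16 and 23. They were 23 and 16 with flanks of 10 or 100 kb, and 19 and 20 with 25 kb. Summed over the 10 loci, peaks covered 139.0 kb in KO, against 126.6 kb in f/f, but without Cdk6 86.8 kb in KO, against 87.8 kb in f/f.

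**Figure D1:**
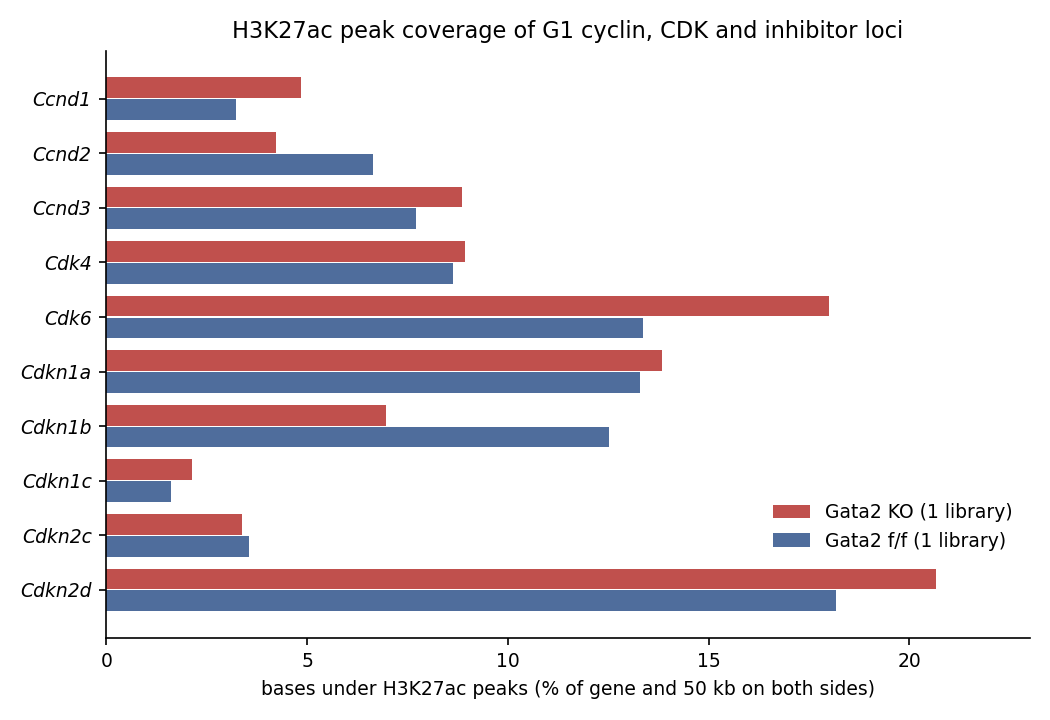
Percent of bases under H3K27ac peaks over each gene and 50 kb on both sides, in Gata2 KO (upper bar) and Gata2 f/f (lower bar), 1 library each and no error bars. Cdk6 (18.0% in KO and 13.4% in f/f) and Cdkn1b (6.97% and 12.5%) had the largest differences in points.

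**Figure D2:**
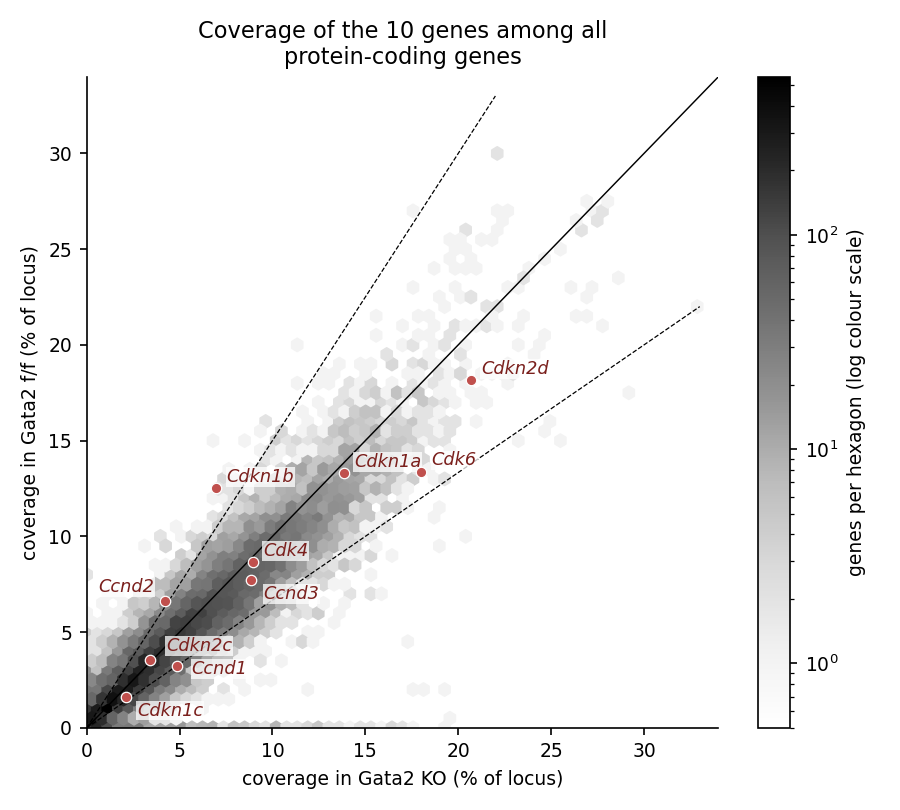
Locus coverage in Gata2 KO (x axis, %) and in Gata2 f/f (y axis, %) for 17304 protein-coding genes (grey hexagons, log colour scale) and the 10 genes (red points). The solid line marks equal coverage and the dashed lines a ratio of 1.5 in either direction; Cdkn1b and Ccnd2 lie beyond the dashed line on the f/f side, and Ccnd1 lies just past the one on the KO side.

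Of the D-type cyclin genes, Ccnd3 had the highest coverage in both lists, Ccnd2 had less in KO than in f/f, and Ccnd1 had 3 weak peaks in KO alone. D-type cyclins are the subunits made in answer to growth signals. Ccnd1 (chromosome 7, 144929931 to 144939831, mm10) was covered over 5339 bp in KO and 3554 bp in f/f, a ratio just past 1.5. Both lists shared a wide peak from 144941082 to 144943454 in KO (2373 bp) and from 144941038 to 144943448 in f/f (2411 bp). It begins more than 1 kb past the upper gene coordinate, so that Ccnd1 had no gene-end peak under the 1 kb window. They also shared a peak at LTO1 (1277 bp in KO and 1143 bp in f/f). Of the 1829 bases covered in KO alone, 1689 lay in peaks of 456, 617 and 616 bp with no f/f counterpart, 2 before the lower coordinate and 1 inside the gene. These 3 were below the KO median -log10 p, and with a -log10 q of at least 5 required of every peak the ratio of KO to f/f was 1.03.

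Ccnd2 (chromosome 6, 127125162 to 127152188) was covered over 5377 bp in KO and 8442 bp in f/f, and was lower in KO under each of the 8 alternative peak sets and flanks tried. Toward its upper gene end, KO had peaks of 722 bp (127149252 to 127149973) and 471 bp (127151639 to 127152109) where f/f had a single peak of 3161 bp (127149261 to 127152421). That stretch was marked in both lists and continuous in f/f alone. An inside peak that began 17.8 kb (KO) and 17.1 kb (f/f) from the lower coordinate was 385 bp wide in KO and 1428 bp in f/f. A peak of 780 bp that began at -45.3 kb from the lower coordinate was found in f/f alone, below the f/f median -log10 p. The peak at Tigar, the neighbouring gene of a metabolic phosphatase, was the wider one in KO, at 2475 bp against 1982 bp in f/f. With this and other peaks at neighbours' ends left out, f/f covered 2.23 times as many bases as KO.

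Ccnd3 (chromosome 17, 47505051 to 47599689) was covered at 8.86% in KO, in 12 peaks, and at 7.71% in f/f, in 10 peaks, every f/f peak being shared. The order turned in 3 of the 8 alternatives. At its first annotated start the peak was 684 bp wide in KO and 424 bp in f/f. Inside the gene, both lists had the same run of peaks. In order along the gene, they were 391, 1029 and 2397 bp wide in KO, where they began 3.15, 6.28 and 16.3 kb from the lower coordinate, and 443, 1045 and 2494 bp wide in f/f. A further inside peak at 36.9 kb was 2145 bp wide in KO and 2600 bp in f/f. Near the second annotated start, a peak of 3214 bp in KO and 3102 bp in f/f began 88.5 kb from the lower coordinate in KO and 88.4 kb from it in f/f. The gene thus carried the same 5 inside peaks in both lists. The peaks in KO alone were 954 bp wide at 61.9 kb and 1530 bp wide at the upper gene end, a place shared with the end of Bysl. Both lay below the KO median -log10 p.

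Of the G1 kinase genes, Cdk4 had a start peak of nearly the same width in both lists and Cdk6 carried the largest excess of covered bases in KO among the 10 genes. Cdk4 (chromosome 10, 127063535 to 127067288) lies among many small genes, and 4 of the 9 KO peaks and 4 of the 7 f/f peaks in its locus lay at ends of neighbours (Tsfm, Eef1akmt3 with Mettl1, Tspan31 and Agap2). The widest difference was at Tspan31, with 1589 bp in KO and 2675 bp in f/f. Its own start peak was 1367 bp wide in KO (127063378 to 127064744) and 1362 bp in f/f (127063374 to 127064735), with a fold enrichment of 4.27 in the KO list and 4.86 in the f/f list. Coverage of the locus was 8.93% in KO and 8.64% in f/f. That order turned in 6 of 8 alternatives, so that no direction is given for Cdk4.

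The start of Cdk4 is shown because both lists marked it with a peak of nearly the same width and it is rich in one short motif. RefSeq start windows (GRCm38.p6, the 250 bases before the annotated start, 5' to 3') were found for 7 of the 10 genes, and Ccnd1, Ccnd2 and Cdkn1c were missing. Capitals mark the motifs searched, on both strands, so that a motif of the other strand appears as its reverse complement. The E-box was CACGTG, the site of bHLH factors such as MYC. The GC box was GGGCGG, the site of SP1 and its relatives. The GATA motif was AGATAA or TGATAA, with a last letter of either A or G. The E2F motif was TTTCCCGC or TTTCGCGC, or else TTTGCCGC or TTTGGCGC. The Cdk4 window, chr10:127063285-127063534 on the plus strand, held 4 E-boxes and 1 GC box:
Cdk4: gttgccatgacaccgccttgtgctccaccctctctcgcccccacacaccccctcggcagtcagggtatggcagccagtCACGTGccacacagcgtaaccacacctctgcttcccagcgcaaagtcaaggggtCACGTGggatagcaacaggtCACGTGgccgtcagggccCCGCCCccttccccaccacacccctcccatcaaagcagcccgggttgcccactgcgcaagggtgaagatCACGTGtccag
Of 32851 RefSeq start windows of this length, 6.02% held an E-box and 7 held 4 or more, 32.7% held a GC box, 26.5% a GATA motif and 1.86% an E2F motif. None of the 10 windows of the 7 genes held these E2F letters. The Cdk4 window was picked after its motifs were seen. Of its 250 bases, 157 lay under the KO peak and 161 under the f/f peak. The first of its 4 E-boxes lay before the start of both peaks.

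Cdk6 (chromosome 5, 3341004 to 3531008) is a gene of 190.005 kb and carried peaks along most of its body. With its flanks it was covered over 52.2 kb in KO, in 27 peaks, and over 38.8 kb in f/f, in 22 peaks, a ratio of 1.35. Its coverage of 18.0% in KO and 13.4% in f/f gave a difference of 4.64 points, larger than that of 98.6% of all genes tested. Both lists covered 34.2 kb together, KO alone covered 18.0 kb and f/f alone 4.55 kb. Of the bases in KO alone, 11545 lay in KO peaks that also overlap an f/f peak and 6454 in 6 peaks without one. More of the bases in KO alone thus lay in shared peaks than in additional ones.

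The start peak of Cdk6 was wider in KO on one side. It spanned 3339232 to 3344821 in KO (5590 bp) and 3341109 to 3344809 in f/f (3701 bp). It thus began 1877 bp earlier in KO and ended 12 bp later. The annotated start of transcription lies 2.89 kb inside the gene's lower coordinate, and both peaks cover it and its 250-base start window. That window, chr5:3343643-3343892 on the plus strand, is shown because the start peak of Cdk6 differed most in width among the 7 genes; its capitals mark 1 E-box, and it held no GC box or GATA motif:
Cdk6: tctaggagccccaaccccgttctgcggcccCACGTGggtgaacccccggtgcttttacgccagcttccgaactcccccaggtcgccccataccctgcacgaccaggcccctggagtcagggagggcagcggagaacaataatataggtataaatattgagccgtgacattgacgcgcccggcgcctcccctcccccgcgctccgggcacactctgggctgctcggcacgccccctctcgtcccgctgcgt

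Peak by peak, the first part of the gene held most of the excess. From 10 to 110 kb past the lower coordinate, 16 peaks covered 24.3 kb in KO, against 12 peaks and 14.3 kb in f/f, a ratio of 1.70. From there to the upper gene end, 6 peaks covered 18.6 kb in KO, against 7 peaks and also 18.6 kb in f/f, a ratio of 1.00. The boundary was set, after the peaks were seen, in a stretch without peaks in either list. In the first part, shared peaks that began 13.5, 33.5 and 46.2 kb into the gene in KO were 1839, 3161 and 3330 bp wide in KO, against 481, 1450 and 1156 bp in f/f. Peaks between them were alike in width. They measured 832, 728 and 1492 bp in KO at 17.9, 25.4 and 40.3 kb, against 894, 754 and 1598 bp in f/f. The peak at 63.4 kb, which had the highest -log10 p of the gene in KO (25.9), was 1824 bp wide in KO and 2113 bp in f/f. Peaks much wider in KO thus stood among others that were alike in width or somewhat narrower in KO. Farther in, peaks at 88.0, 91.6 and 97.1 kb were 1514, 1527 and 1725 bp wide in KO, against 1433, 835 and 1753 bp in f/f.

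The KO list further had peaks with no f/f counterpart at 56.1 kb (671 bp), 58.4 kb (1119 bp), 72.3 kb (1089 bp) and 83.0 kb (2333 bp). The first pair of these lies in a stretch of the f/f list without peaks, from 48.5 to 63.2 kb. Stitched where less than 12 kb apart, the KO peaks from the start to 98.9 kb formed 1 domain of 17 peaks over 100.6 kb, with 29.9 kb covered. Only the weak KO peaks at 56.1 and 58.4 kb (-log10 p 3.25 and 3.24) joined it across that stretch. The KO peaks around them end at 49.5 kb and begin at 63.4 kb, more than 12 kb apart. Stitching was not repeated with other peak sets. The f/f peaks formed 2 domains there, of 48.4 kb (7 peaks with 10.034 kb covered) and 35.7 kb (6 peaks with 7.97 kb covered). A shared peak at 79.0 kb went the other way, with 387 bp in KO and 1222 bp in f/f.

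In the second part of the gene, all 6 KO peaks had a counterpart. Peaks that began at 119.9 and 129.8 kb in KO were 3679 and 5053 bp wide in KO, against 3124 and 3452 bp in f/f. Those at 149.7 and 160.4 kb were 4185 and 2206 bp wide in KO, against 4871 and 2964 bp in f/f. Peaks at 156.2 and 174.0 kb were close in width, with 1646 and 1846 bp in KO, against 1699 and 1802 bp in f/f. The only peak of the body found in f/f alone, of 641 bp, lay at 170.4 kb. Outside the gene, KO alone had weak peaks of 674 bp before it and 568 bp after it. The peak at the end of Fam133b, 966 bp in KO and 1071 bp in f/f, was the strongest of the locus in both lists.

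**Figure D3:**
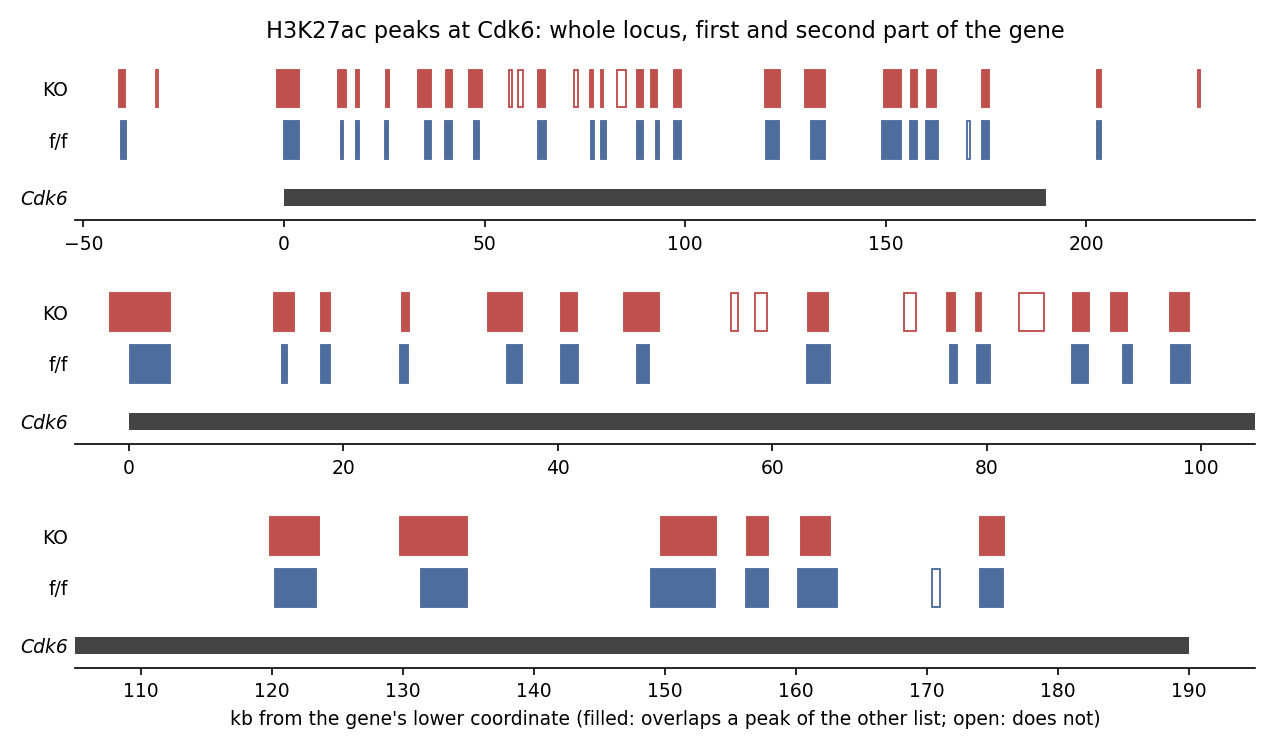
H3K27ac peaks at Cdk6 in Gata2 KO (upper row) and Gata2 f/f (lower row) against the distance from the gene's lower coordinate in kb, for the whole locus, the first part and the second part of the gene. Filled boxes overlap a peak of the other list and open boxes do not; 4 open KO boxes lie between 56.1 and 85.3 kb, and the 1 open f/f box of the gene body lies at 170.4 kb. In the upper panel the second and the last KO box are open but too narrow to show it.

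The Cdk6 peaks were broad and low calls in both lists. At the start and inside the gene, fold enrichment ran from 1.42 to 2.41 over 23 KO peaks and from 1.67 to 3.08 over 20 f/f peaks. Its median was 1.64 in KO and 2.04 in f/f, and every shared peak of the locus had the lower fold enrichment in KO. Over the whole lists the median was also lower in KO (3.09, against 3.51 in f/f). The KO excess at Cdk6 thus lies in covered bases and not in fold enrichment. Under 2-fold were 21 of the 23 KO peaks (2.85% of all KO peaks) and 10 of the 20 f/f peaks (1.60% of all f/f peaks). The caller's background at this locus was not analysed here, and its part in the low folds was not tested. None of the 6 KO peaks and not the 1 f/f peak without a counterpart reached the median -log10 p of its list. The ratio of KO to f/f at the locus was 1.12 when each peak needed a -log10 q of at least 5. There was no KO excess among the strongest 20000 peaks (27.6 kb in KO, against 28.1 kb in f/f) and when each peak needed at least 3-fold enrichment (2.47 kb in KO, against 4.34 kb in f/f), the minimum that kept fewer of the KO peaks. In the first part of the gene the ratio of KO to f/f was 1.62 at that -log10 q and 1.33 among the strongest 20000 peaks. In the second part it was 0.813 and 0.710 under these settings. With at least 3-fold enrichment, the first part had 0 kb left in KO and 2.11 kb in f/f, and the second part none in either.

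Of the Cip/Kip inhibitor genes, Cdkn1b had less coverage past its start in KO than in f/f, Cdkn1a had similar coverage within 50 kb but more in KO near the gene, and Cdkn1c had few peaks. Cdkn1b, which encodes p27, lies on chromosome 6 from 134920401 to 134925525. Its locus was covered over 7322 bp in KO and 13153 bp in f/f, so that f/f covered 1.80 times as many bases. The difference of -5.55 points lay at percentile 0.139 of all genes tested. The start peak did not take part in it, being 1982 bp wide in KO (134919681 to 134921662) and 1921 bp in f/f (134919645 to 134921565). Most of the difference lay in a second peak past the start, which spanned 134926741 to 134930294 in KO (3554 bp) and 134923662 to 134931972 in f/f (8311 bp). In f/f it ran over the upper gene end, and 99.96% of f/f peaks were narrower. In KO it lay within the span of the f/f peak and wholly outside the gene. Both were strong calls, with a -log10 p of 39.4 in KO and 62.2 in f/f. A peak of 1412 bp with a -log10 p of 2.99, 25.6 kb past the lower coordinate, was found in f/f alone. Coverage was lower in KO in 7 of 8 alternatives. With at least 3-fold enrichment required, which leaves out the second peak in both lists, it was higher by 0.32 points.

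Cdkn1a, the p53 target that encodes p21, lies on chromosome 17 from 29090979 to 29100722. Coverage was 13.8% in KO, in 12 peaks, and 13.3% in f/f, in 7 peaks, and the order turned in 2 of 8 alternatives. The difference depended on the flank. With flanks of 10 kb, peaks covered 3641 bp in KO and 1568 bp in f/f, past 1.5-fold, and the difference was 6.97 points. With flanks of 25 kb it was 5.33 points (11806 bp in KO and 8620 bp in f/f), against 0.54 with 50 kb (15193 bp in KO and 14595 bp in f/f). These points are shares of loci of different length. The share of all genes past 1.5-fold was not computed with flanks of 10 kb. Within 10 kb, KO peaks of 684 and 862 bp, both below the KO median -log10 p, had no f/f counterpart. Of the bases covered in either list, 36.5% were covered in both, the lowest share of the 10 genes. KO alone covered 7.23 kb and f/f alone 6.63 kb. At the first annotated start KO had a weak peak of 862 bp (29090745 to 29091606, -log10 p 7.22) and f/f had none. The strongest peak of the locus in both lists lay just inside the second annotated start, 2095 bp wide in KO and 1568 bp in f/f. Beyond the gene, KO had peaks of 1093 and 2515 bp where f/f had 1 peak of 5278 bp (29110853 to 29116130). Another peak, 32.8 kb past the lower coordinate in KO, was 2101 bp wide there and 474 bp in f/f. A peak at -40.5 kb in KO had 958 bp, against 2286 bp in f/f. Peaks without a counterpart, 6 in KO and 2 in f/f (1004 and 2435 bp), did not reach the median -log10 p of their list.

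Both annotated starts of Cdkn1a are shown, since they differ in their marks. The first window, chr17:29090729-29090978, had 234 of 250 bases under the KO peak and none under an f/f peak, and holds 1 GATA motif in capitals. The second, chr17:29093519-29093768, lies just before the shared peak, with no base under a peak in either list, and holds 2 GC boxes in capitals. Both are on the plus strand:
Cdkn1a, first start: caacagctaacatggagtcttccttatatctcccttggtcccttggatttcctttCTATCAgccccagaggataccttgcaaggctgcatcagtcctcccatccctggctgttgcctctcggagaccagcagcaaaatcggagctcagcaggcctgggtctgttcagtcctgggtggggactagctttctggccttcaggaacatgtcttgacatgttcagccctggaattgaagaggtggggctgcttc
Cdkn1a, second start: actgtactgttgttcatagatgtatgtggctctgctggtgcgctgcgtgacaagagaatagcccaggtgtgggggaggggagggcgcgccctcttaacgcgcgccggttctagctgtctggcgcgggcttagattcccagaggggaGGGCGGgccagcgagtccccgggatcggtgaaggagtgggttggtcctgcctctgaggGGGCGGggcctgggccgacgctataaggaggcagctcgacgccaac
GC content was 54.0% in the first window and 64.8% in the second, beside a median of 52.4% over all windows.

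Cdkn1c, which encodes p57 and is an imprinted gene, lies on chromosome 7 from 143458339 to 143461059. Its locus was covered at 2.14% in KO and 1.62% in f/f, the least of the 10 genes, an order that turned in 5 of 8 alternatives, and neither list had a peak at its ends or inside. A peak that began 6.45 kb past its lower coordinate in KO was 759 bp wide in KO and 876 bp in f/f. Another at Slc22a18, a neighbour, was 638 bp in KO and 789 bp in f/f. Another, of 800 bp, was found in KO alone.

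At the INK4 genes, the peaks at the gene itself were nearly equal in width in both lists. Cdkn2c, which encodes p18, lies on chromosome 4 from 109660876 to 109666756 and had 3 peaks in each list, all shared. Its start peak was 1840 bp wide in KO and 1695 bp in f/f, and 87.8% of the bases covered in either list were covered in both, the highest share of the 10 genes. Locus coverage was 3.39% in KO and 3.56% in f/f, an order that turned in 2 of 8 alternatives.

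Cdkn2d, which encodes p19, lies on chromosome 9 from 21288459 to 21291421 and had the most coverage of the 10 genes, at 20.7% in KO and 18.2% in f/f. It was higher in KO in 7 of 8 alternatives. Of its peaks, 5 of 10 in KO and 4 of 8 in f/f lay at ends of other genes. With such peaks left out, unless also at an end of Cdkn2d, coverage was 15.3% in KO and 9.36% in f/f. Cdk6 was then higher, at 17.7% and 13.0%. A single peak covered the whole gene in both lists, 5151 bp wide in KO (21286947 to 21292097) and 5192 bp in f/f (21286939 to 21292130). It also covered an end of Kri1. Farther on, from 21315451 in KO up to an end of Slc44a2, KO had peaks of 3714 and 1458 bp where f/f had 1 peak of 6940 bp. KO peaks that began at -43.8 and -9.47 kb from the lower coordinate were 2189 and 1650 bp wide, against 550 and 501 bp in f/f, and a KO peak of 1617 bp at Atg4d and Kri1 had no counterpart. The difference in coverage lay in these distal peaks and not at the gene. The window of Cdkn2d, chr9:21291210-21291459 on the minus strand, is shown because among the annotated starts it was the only one whose peak was narrower in KO; its capitals mark 3 GC boxes:
Cdkn2d: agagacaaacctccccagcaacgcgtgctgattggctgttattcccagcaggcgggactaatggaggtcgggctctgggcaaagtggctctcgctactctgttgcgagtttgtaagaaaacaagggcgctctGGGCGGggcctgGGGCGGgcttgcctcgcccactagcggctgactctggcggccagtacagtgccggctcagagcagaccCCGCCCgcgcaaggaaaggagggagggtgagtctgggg

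**Figure D4:**
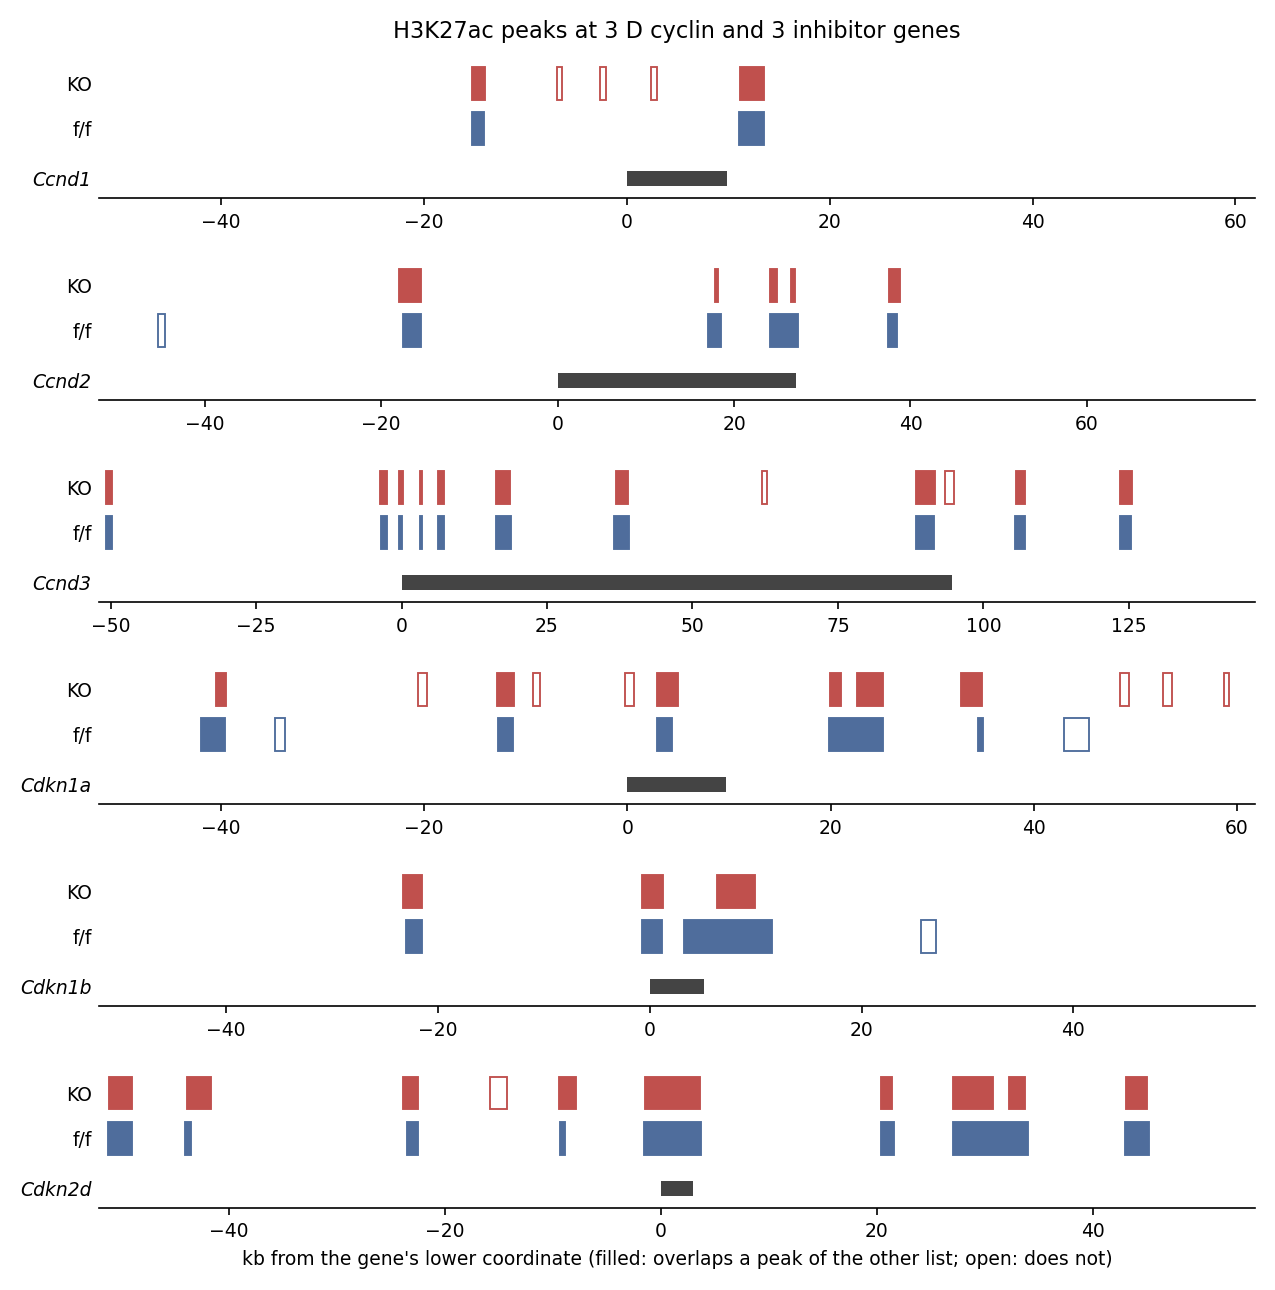
H3K27ac peaks at Ccnd1, Ccnd2, Ccnd3, Cdkn1a, Cdkn1b and Cdkn2d in Gata2 KO (upper row of each panel) and Gata2 f/f (lower row) against the distance from the gene's lower coordinate in kb; filled boxes overlap a peak of the other list and open boxes do not. At Cdkn1b the second peak was 3554 bp wide in KO and 8311 bp in f/f, and at Ccnd2, Cdkn1a and Cdkn2d 1 f/f peak stands over 2 KO peaks.

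By position, the 89 KO peaks of the 10 loci were 9 at gene ends (within 1000 bp), 32 inside genes and 48 outside them, and the 70 f/f peaks were 8, 26 and 36. A gene-end peak was present in both lists for 7 of the 10 genes (47.6% of all protein-coding genes), in KO alone for Cdkn1a (2.65% of all), in f/f alone for 0 (2.73% of all) and in neither for Ccnd1 and Cdkn1c. Overlap with a peak of the other list was found for 7 of 9 gene-end, 26 of 32 inside and 35 of 48 outside peaks in KO. In f/f these were 8 of 8, 25 of 26 and 32 of 36. In all, 76.4% of the KO peaks and 92.9% of the f/f peaks were shared, beside 77.4% and 83.8% over the whole lists. Of the outside peaks, 19 in KO and 17 in f/f lay at an end of another gene. Of peaks below the median -log10 p of their list, 59.1% of all KO peaks and 70.1% of all f/f peaks were shared. The 21 KO and 5 f/f peaks of the 10 loci without a counterpart were all of that weaker kind.

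Widths of shared peaks went both ways. In 62 pairs of 1 KO and 1 f/f peak, 30 were wider in KO and 32 in f/f, and the median ratio of KO to f/f width was 0.992, beside 0.991 over 28349 such pairs in all. Peaks that each overlapped 2 peaks of the other list numbered 0 in KO and 3 in f/f, at Ccnd2, Cdkn1a and Cdkn2d. Peaks over several of the other list made up 0.218% of all KO peaks and 0.592% of all f/f peaks. Of the bases covered in KO alone, 20623 lay in shared peaks and 18917 in peaks without a counterpart. Of those covered in f/f alone, 20866 lay in shared peaks and 6272 in the others.

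**Figure D5:**
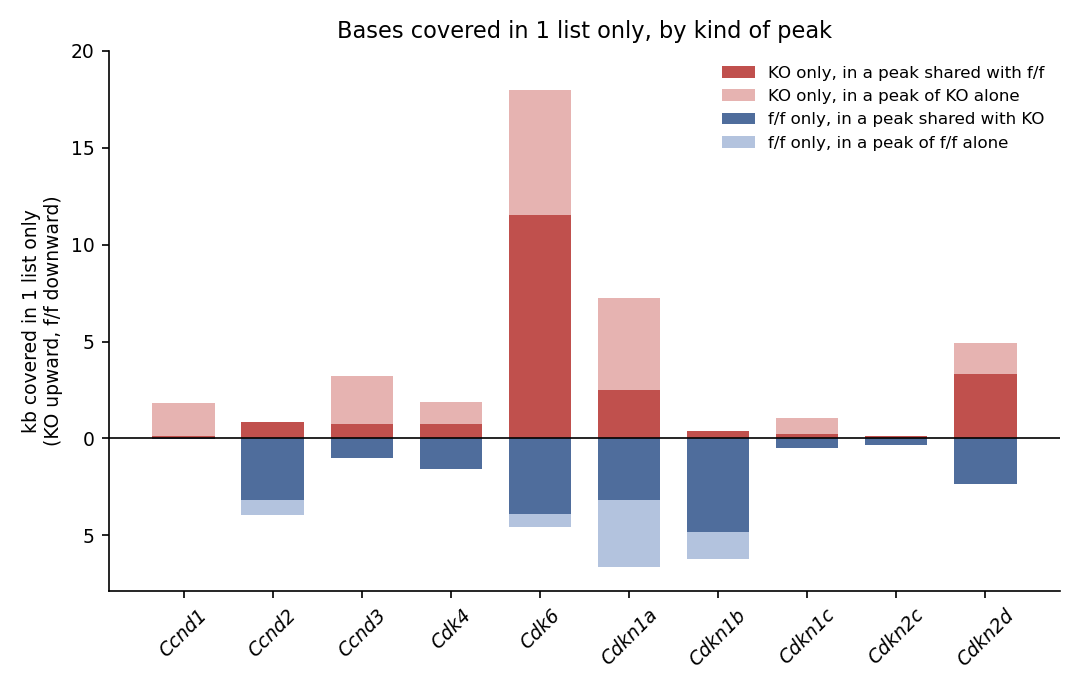
Bases covered in 1 list only at each gene and its 50 kb flanks, in kb, for Gata2 KO (upward) and Gata2 f/f (downward), divided by whether the peak overlaps a peak of the other list (dark) or not (light). Cdk6 had 18.0 kb in KO only, 11545 bp of them in shared peaks, and Cdkn1b had 6.24 kb in f/f only.

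Other genes of the cell cycle were covered more in KO in some cases and less in others. Of 20 RB, E2F and cyclin E genes, 11 were covered more in KO and 9 less, with a median difference of 0.16 points. Past 1.5-fold was Skp2, which encodes the ubiquitin ligase subunit that marks p27 for destruction, with 9.78 kb covered in KO, against 6.13 kb in f/f, and no gene-end peak in either list. Cdc25a, a phosphatase that activates CDK2, had 11.5% in KO and 9.85% in f/f. Rb1, the retinoblastoma gene, had 6.34% in KO and 8.12% in f/f, and the repressor gene E2f7 3.24% and 4.53%.

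Of 6 other inhibitor and CDK-activating genes, 2 were covered more in KO and 4 less. The phosphatase gene Cdkn3 had 4.47% in KO and 2.94% in f/f and was past 1.5-fold, and Cdk7, the kinase that activates other CDKs, had 9.70% and 9.34%. Cdkn2b, the INK4 gene of p15, had 4.17% in KO and 4.83% in f/f, and Mnat1, which encodes an assembly factor of the CDK7 kinase, 4.42% and 5.06%. In points, these differences were smaller than those at Cdk6 and Cdkn1b.

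Of 13 genes of S, G2 and M phase, 7 were covered more in KO and 6 less, with a median difference of 0.23 points. The cyclin gene Ccnb2, with 2.83% in KO and 4.44% in f/f, was past 1.5-fold. So was Ccna1, a cyclin gene mainly of germ cells, with 2684 bp covered in KO, listed at 0 in f/f, and lacking a gene-end peak in both lists. The mitotic kinase genes Plk1 (4.64% in KO and 5.33% in f/f) and Aurkb (23.4% and 21.7%) differed by less than 1.5-fold. In these 3 lists, 4 of 39 genes were past 1.5-fold, against 21.9% of all genes.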

How the data were processed

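H3K27ac was measured by ChIP-seq in 2 libraries, 1 per labelled genotype. The submitters' processing notes name BWA, SAMtools, MACS2 and the mm10 build, and the deposited lists have the columns of broad peaks. Which options and which control library were used is not given in the sources used here. Each deposited peak has a score (not used), a fold enrichment (a ratio over the caller's background) and -log10 p and q-values, all the authors' own. They served to describe, rank or filter peaks. Depth is unknown, and no replicates were pooled.

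Peaks outside chromosomes 1 to 19, X and Y were left out. Genes, starts and sequences came from RefSeq tables of GRCm38.p6, the same build as mm10. The gene table has no exons, so that peaks are called inside a gene, not intronic. Coverage is the percent of bases under peaks over a gene and 50 kb on both sides. Gene-end peaks lay within 1000 bp of either end, and sharing needed 1 bp. Coverage code (Python 3.11.15, pandas 2.3.3) was tested on simulated data. The genes, gene lists, boundaries and motifs were chosen with earlier results of these data known. The text names all 10 genes, neighbours whose end holds a peak and, per further list, the 2 with the largest difference each way. Start windows are shown for Cdk6 and for the genes whose start peak differed most in width, and the second Cdkn1a start and the Cdk4 window, shown for its motifs and its nearly equal peaks, were added outside that rule. Alternatives were other peak thresholds, flanks, windows and overlaps.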

Additional observations from a re-analysis of the deposited data

How the results depend on the processing

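With a -log10 q of at least 5 required, Cdk6 had 32964 bp under peaks in KO and, among the strongest 20000 peaks, 27601 bp. Among peaks of at least 3-fold enrichment it had 2465 bp in KO and 4344 bp in f/f, the coverage difference of Cdkn1b turned to 0.32 points, gene-end peaks in both lists were left for 3 of the 10 genes, and 8 of 39 other cycle genes were covered more in KO, against 20 without that threshold, which kept 53.5% of the KO peaks and 67.2% of the f/f peaks. Shared KO peaks of the 10 loci numbered 40 among the strongest 20000 and 28 at 3-fold enrichment, against 68. Genes covered less in KO were 8 among the strongest 20000 peaks, with 2 covered more, 5 with flanks of 10, 25 or 100 kb, and 6, with 4 covered more, when both lists had the same number of peaks. Genes past 1.5-fold were 0 with flanks of 100 kb and 5 with peaks at other genes' ends left out. The latter setting drops whole peaks. At Cdkn2d it took out the f/f peak of 6940 bp at Slc44a2 but kept the KO peak of 3714 bp within its span. The ratio of KO to f/f at Cdkn2d was 1.64 there, against 1.14 with all peaks. Shares over all genes were not recomputed at other thresholds or flanks or with these peaks left out, so that the counts of genes here have none beside them. The setting without peaks at other genes' ends, and those for shared peaks and for other cycle genes, were chosen after seeing the data. Among the recomputed counts and sums, 41 stayed within 1.5 times the value given and 17 did not. Of 80 recomputed coverage differences of single genes, 67 moved by more than a 95% binomial interval that counts bases as independent. The other 13 did not, and 22 of the 80 had the other sign. Another flank changes the locus length, so that points can move while the covered bases stay the same. With flanks of 25 kb, Cdkn1b kept 7322 bp in KO and 13153 bp in f/f but moved from -5.55 to -10.6 points. The 67 thus do not measure stability alone. Ccnd2 stayed lower and Ccnd1 higher in KO in 8 of 8 settings, and Cdk6 higher in 6. For Ccnd1 this was by only 0.087 points (3650 bp in KO, against 3554 bp in f/f) at that -log10 q and among the strongest 20000 peaks. Without the blank chromosome starts 21.2% of all genes were past 1.5-fold. No paired analysis was possible because each genotype has 1 library. The cause of these changes was not tested, and the unknown depth limits every comparison of covered bases.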
